A study of Mus musculus with 23 samples.

Results

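The genes described here are 10 genes of the lipid droplet, taken by symbol from a count table of 18876 genes: the droplet coat genes *Plin2* and *Plin3*, the triglyceride synthesis genes *Acsl1*, *Dgat1* and *Dgat2*, the lipase inhibitors *Hilpda* and *G0s2*, and the lipase genes *Pnpla2*, *Lipe* and *Mgll*. All 10 were in the table and passed the filter on low counts, as did 18759 genes in all. RNA was sequenced in bulk from cells of the bilateral hippocampus of female mice that were sorted magnetically for CD11b, which microglia carry on their surface along with other myeloid cells. Every mouse was homozygous for a floxed *Slc11a2* allele, the gene of the iron importer DMT1, carried 1 copy of *Cx3cr1* Cre-ERT2, and was of a mixed 129S and C57BL/6J background. *APP/PS1* mice carried the amyloid transgenes on 1 chromosome, and their WT littermates did not. Slc11a2KD mice were given tamoxifen by mouth when 5 to 6 months old, 4 mg daily for 5 days, and Control mice received corn oil, so tamoxifen itself and the loss of *Slc11a2* cannot be told apart. Cells were collected at 15 to 18 months. The groups were Control WT (n = 6), Control *APP/PS1* (n = 6, with a further sample left out), Slc11a2KD WT (n = 5) and Slc11a2KD *APP/PS1* (n = 5). *Cx3cr1* also drives Cre in macrophages outside the microglia.

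A lipid droplet is a store of triglycerides and sterol esters, wrapped in a single layer of phospholipid and a coat of proteins of the perilipin family. Fatty acids are activated to acyl-CoA, joined to a glycerol backbone and released again by lipases that act in sequence, and small inhibitor proteins hold back the first of these lipases. Microglia gather lipid droplets with age, around amyloid plaques and after taking up myelin debris.

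Promoter sequences are shown for *Plin2*, whose level differed most between genotypes, for *Mgll*, a lipase gene lower in *APP/PS1* samples in both comparisons, and for *Hilpda*, the lipase inhibitor that varied most with the library number. They are RefSeq windows on GRCm38.p6, an older build than that of the counts, written 5′ to 3′ on the strand of the gene, from 250 bases before the annotated start to 10 bases after it. Capitals mark CACGTG, an E-box motif, ACGTG, a form of the core of the hypoxia response element, and AGGTCA, a half-site of nuclear receptors that reads TGACCT when it lies on the other strand. Other forms of these motifs were not searched.
Plin2, chr4:86670050-86670309, minus strand: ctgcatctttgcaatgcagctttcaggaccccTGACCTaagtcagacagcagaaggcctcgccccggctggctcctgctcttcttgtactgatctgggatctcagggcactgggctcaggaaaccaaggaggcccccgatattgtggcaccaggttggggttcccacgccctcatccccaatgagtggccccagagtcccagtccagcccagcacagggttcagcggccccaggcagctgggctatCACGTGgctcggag
Mgll, chr6:88724162-88724421, plus strand: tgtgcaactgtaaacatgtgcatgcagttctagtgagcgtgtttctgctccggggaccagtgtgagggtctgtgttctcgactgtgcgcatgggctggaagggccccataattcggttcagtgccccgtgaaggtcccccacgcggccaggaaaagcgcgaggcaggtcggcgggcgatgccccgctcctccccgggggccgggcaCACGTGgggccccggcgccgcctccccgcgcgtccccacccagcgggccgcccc
Hilpda, chr6:29272376-29272635, plus strand: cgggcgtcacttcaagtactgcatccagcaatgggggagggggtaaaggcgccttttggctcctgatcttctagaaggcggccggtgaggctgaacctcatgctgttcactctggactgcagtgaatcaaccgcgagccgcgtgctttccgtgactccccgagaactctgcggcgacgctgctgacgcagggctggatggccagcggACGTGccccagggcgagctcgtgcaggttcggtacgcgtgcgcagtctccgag
In *Plin2*, CACGTG began 4 bases before the start and AGGTCA lay 218 bases before it on the other strand. In *Mgll*, CACGTG began 44 bases before the start. In *Hilpda*, ACGTG lay 43 bases before the start, outside any CACGTG. *Hilpda* and *Mgll* have 2 windows each, of which 1 is shown. The other window of *Hilpda* held none of the motifs, and that of *Mgll* held ACGTG 158 bases before its start. Both strands of all 300-base windows, which run to 50 bases after the start, were searched, and each CACGTG holds ACGTG on both strands. ACGTG was in windows of 4 of the 8 genes with an entry (*Hilpda*, *Lipe*, *Mgll* and *Plin2*; 5 of their 12 windows) and in 19.6% of 32851 mouse windows. CACGTG was in windows of *Lipe*, *Mgll* and *Plin2* (3 of 12 windows) and in 7.15% of all windows. AGGTCA was in the window of *Plin2* (1 of 12) and in 16.3% of all windows. These matches are a description of the windows.

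Total counts per sample ran from 31128643 to 54872491, and the values below are normalised read counts (CPM, each sample scaled to its library size). The summed level of the microglial marker genes, 7 of 8 in the table, was 26500 to 40800 CPM in all 22 samples. Counts of the whole *Slc11a2* gene, in which exons outside the deleted part are included, were 29.9 to 43.7 CPM in Control WT and 27.1 to 38.1 CPM in Slc11a2KD WT, and 40.0 to 48.2 CPM in Control *APP/PS1* and 37.8 to 75.1 CPM in Slc11a2KD *APP/PS1*, and so do not check the knockdown. The labels number the libraries 1 to 23. Slc11a2KD samples had the numbers 1 to 4 and 18 to 23 and Control samples 5 to 17, and in the Slc11a2KD samples several of the lipid droplet genes differed between these runs of numbers. The labels do not say what a number stands for. The edgeR p-values set a difference between groups against the spread of samples within groups, estimated over all 4 groups. In the Slc11a2KD groups that spread includes the difference between the runs of library numbers. In bulk RNA, fewer cells of a type and less RNA per cell cannot be told apart.

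The first comparison, Control *APP/PS1* against Control WT, addressed how the amyloid genotype alone changed the droplet genes. *Plin2*, *Plin3* and *Dgat2* rose and *Mgll* fell, while the other 6 genes did not pass the test (edgeR quasi-likelihood test, Benjamini-Hochberg adjusted p under 0.05). Thus 3 of 10 were called higher, beside 5.99% of all genes tested, and 1 of 10 lower, beside 4.48%. The median log2 fold change of the 10 genes was 0.06, against -0.02 over all genes, since the list moved in both directions. With knockdown the same 4 genes were called in the same directions, with *Hilpda* also higher and *Acsl1* and *Pnpla2* also lower. This made 4 of 10 higher, beside 9.77% of all genes, and 3 of 10 lower, beside 6.41%, with a median log2 fold change of 0.50 against -0.07. Library runs were uneven between these genotypes, with libraries 1 to 3 from WT and only library 4 of that run from *APP/PS1*. With a term for library numbers 18 to 23, 3 of 10 were higher and 2 lower, beside 1121 and 652 of 18759 genes. *Hilpda* and *Pnpla2* then did not pass (adjusted p = 0.111 and 0.222). With only libraries 18 to 23 of the Slc11a2KD samples, 1 of 10 was higher, beside 2.6% of genes, and 0 lower, beside 2.09%. Summed markers of other cells differed between the genotypes as well. Astrocyte markers (5 of 5 in the table) summed to 35.3 to 124 CPM in *APP/PS1* samples and 5.60 to 16.5 CPM in WT samples. Microglial markers summed to 26500 to 33200 CPM in *APP/PS1* samples and 35400 to 40800 CPM in WT samples, and border macrophage markers (7 of 7) to 91.8 to 197 CPM against 221 to 511 CPM. Other sums had lower medians in Control *APP/PS1* and Slc11a2KD *APP/PS1* than in Control WT and Slc11a2KD WT: oligodendrocyte (541 and 824 CPM, against 1210 and 2030 CPM), endothelium (116 and 136, against 207 and 181), neutrophil (56.3 and 72.2, against 150 and 113), monocyte (15.6 and 19.3, against 43.9 and 38.7), lymphocyte (14.2 and 15.6, against 18.8 and 27.5) and neuron markers (1.78 and 2.07, against 4.02 and 4.47). Their part in the changes of the droplet genes was not tested.

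**Figure D1:**
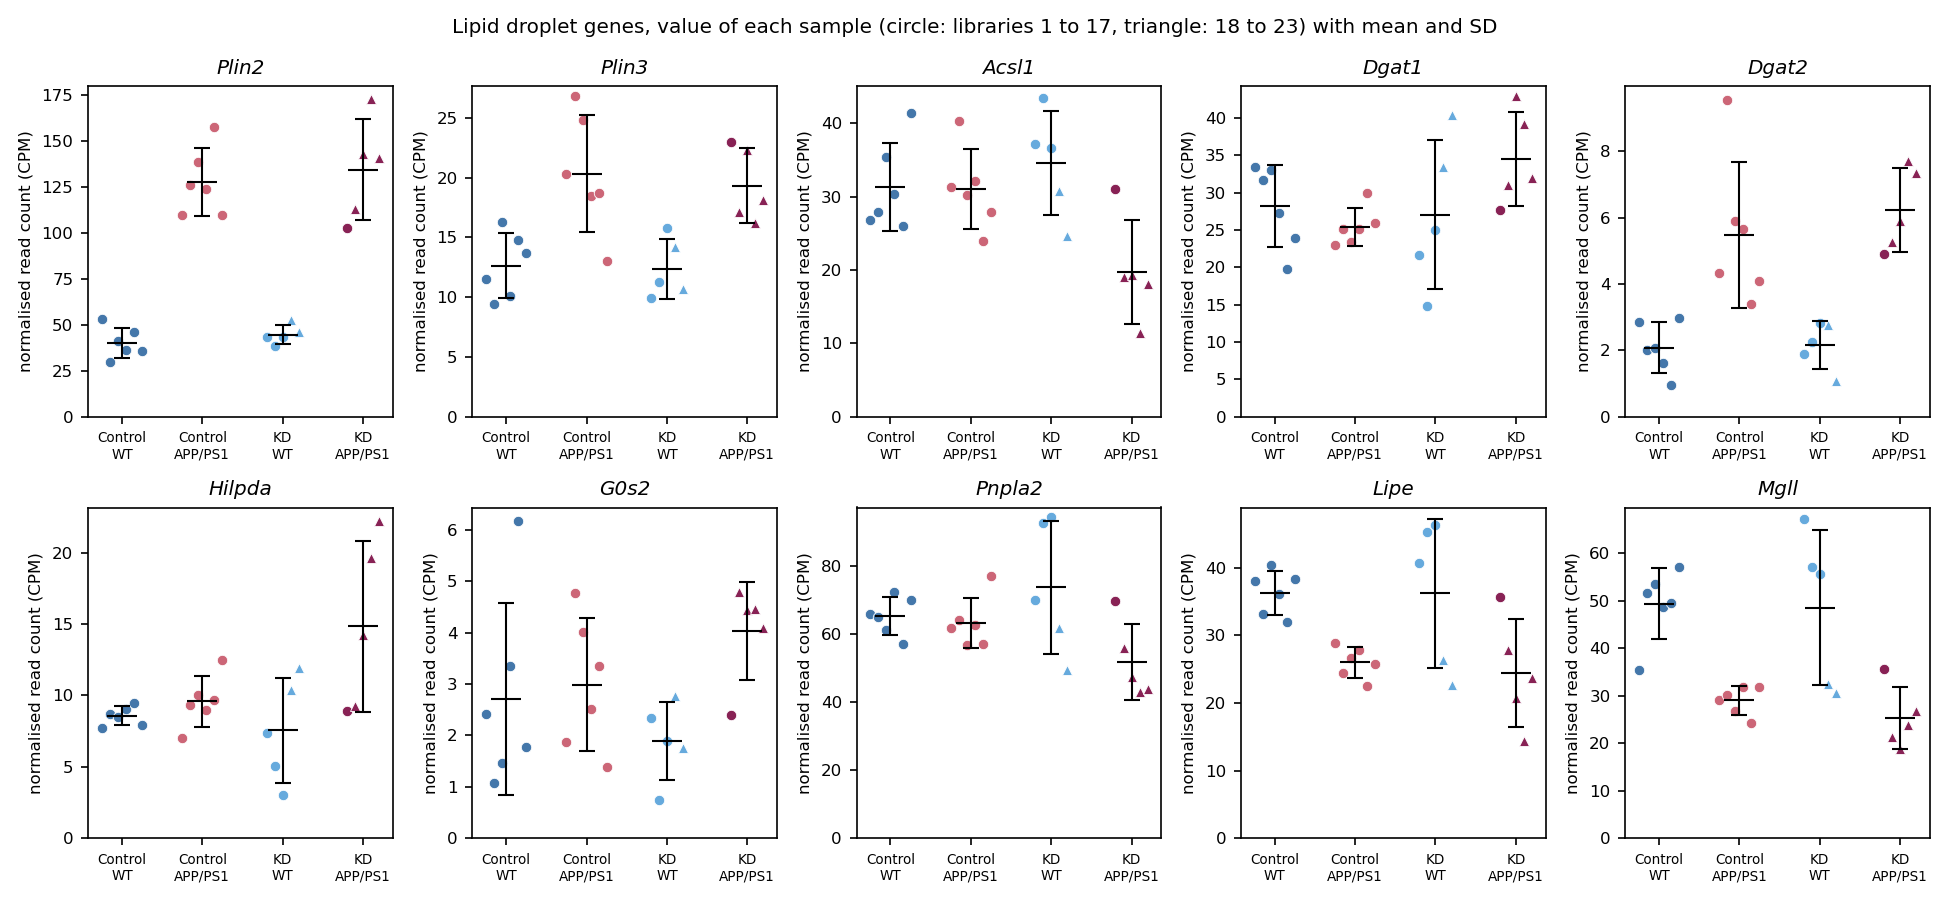
Normalised read count (CPM, linear axes from 0) of the 10 lipid droplet genes in each of the 22 samples, by group. Each point is a sample (circles, libraries 1 to 17; triangles, libraries 18 to 23), and the bar is the mean with its SD. *Plin2* ranges from 103 to 173 CPM in *APP/PS1* mice and from 30.0 to 53.0 CPM in WT mice, over Control and Slc11a2KD.

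*Plin2* (ENSMUSG00000028494, GRCm39 chr4:86565912-86588459, minus strand) encodes perilipin 2, the main droplet coat protein of cells outside fat tissue. Its level in Control WT ran from 30.0 CPM through a median of 38.8 to 53.0 CPM, and in Control *APP/PS1* from 110 CPM through 125 to 158 CPM. All 6 *APP/PS1* samples were far above all 6 WT samples. The means were 40.4 ± 8.19 CPM and 128 ± 18.3 CPM (SD, n = 6 each), a 3.16-fold difference (log2 fold change 1.66, SE 0.14, adjusted p = 2.31e-08). In Slc11a2KD WT the 5 samples had 43.3, 38.5, 43.4, 52.9 and 46.0 CPM (libraries 1, 2, 3, 19 and 22). In Slc11a2KD *APP/PS1* they had 103, 113, 143, 173 and 141 CPM (libraries 4, 18, 20, 21 and 23). Again no *APP/PS1* sample overlapped with WT. The fold change in the Slc11a2KD samples was 3.0 (log2 1.58, SE 0.16, adjusted p = 2.98e-07). It also passed in a fit of all Control samples with only libraries 18 to 23 of the Slc11a2KD samples (log2 1.49, SE 0.22, adjusted p = 0.00032). That fit compared 2 WT with 4 *APP/PS1* samples. The 4 groups ordered as Slc11a2KD *APP/PS1* (134 ± 27.4 CPM, n = 5), Control *APP/PS1*, Slc11a2KD WT (44.8 ± 5.28 CPM, n = 5) and Control WT, in which the 2 *APP/PS1* groups and the 2 WT groups each lay within their SD of one another.

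*Plin3* (ENSMUSG00000024197, chr17:56584218-56599873, minus strand) encodes perilipin 3, a coat protein that moves from the cytosol onto young droplets. It had 9.40 to 16.3 CPM in Control WT (median 12.6) and 13 to 26.8 CPM in Control *APP/PS1* (median 19.5). The ranges overlapped, with library 17, the lowest *APP/PS1* sample, inside the WT range. The log2 fold change was 0.68 (SE 0.18, adjusted p = 0.0140). With knockdown, WT had 9.90, 11.3, 15.8, 14.2 and 10.7 CPM and *APP/PS1* 23, 17.1, 22.3, 16.2 and 18.1 CPM, in the library order given for *Plin2*. The groups did not overlap, and the log2 fold change was 0.64 (SE 0.20, adjusted p = 0.0278). This call was lost without library 1, 2 or 20, with an adjusted p of at most 0.0787, and with only the compared groups (adjusted p = 0.0679). It was also lost with only libraries 18 to 23 of the Slc11a2KD samples in the fit (log2 0.53, adjusted p = 0.303). *Plin3* thus differed by about 1.6-fold (1.61 and 1.56) where *Plin2* differed by 3.16-fold and 3.0-fold.

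*Dgat2* (ENSMUSG00000030747, chr7:98802491-98831991, minus strand) encodes the diacylglycerol acyltransferase that works at the droplet and takes up newly made fatty acids. It was a low gene in WT samples, with 0.956 to 2.98 CPM in Control WT (median 2.03, or 43 to 127 counts a sample) and 3.39 to 9.54 CPM in Control *APP/PS1* (median 5.00). No *APP/PS1* sample was as low as the highest WT sample. The difference was 2.63-fold (log2 1.40, SE 0.31, adjusted p = 0.0038). With knockdown it had 1.90, 2.25, 2.83, 2.78 and 1.09 CPM in WT and 4.90, 5.27, 5.91, 7.72 and 7.36 CPM in *APP/PS1*. The groups were again apart, by 2.87-fold (log2 1.52, SE 0.34, adjusted p = 0.0036). With only libraries 18 to 23 of the Slc11a2KD samples in the fit, the call was lost (log2 1.72, SE 0.51, adjusted p = 0.0605). Library 7 of Control *APP/PS1*, at 9.54 CPM, was the highest of all 22 samples.

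*Dgat1* (ENSMUSG00000022555, chr15:76385083-76396476, minus strand) encodes the other diacylglycerol acyltransferase, which sits in the endoplasmic reticulum and re-esterifies fatty acids released from stores. Unlike *Dgat2*, it did not pass the test for genotype, with 28.2 ± 5.50 CPM in Control WT and 25.4 ± 2.50 CPM in Control *APP/PS1* (SD, n = 6 each; log2 -0.15, SE 0.18, adjusted p = 0.705). Under knockdown, WT had 21.7, 14.9, 25.0, 33.4 and 40.4 CPM and *APP/PS1* 27.7, 31, 42.9, 39.2 and 32.0 CPM (log2 0.35, SE 0.20, adjusted p = 0.243), and the test was passed without library 22 (log2 0.54, adjusted p = 0.0488). The 2 highest WT samples were libraries 19 and 22. Exons of *Dgat1* share 2486 bases with *Hsf1* on the other strand. The strand setting of the counting is not given in the sources used here, so reads from the shared part cannot be told apart. *Hsf1* had 13.2 ± 2.08 CPM in Control WT and 15.0 ± 1.84 CPM in Control *APP/PS1* (SD, n = 6 each), and 12.0 ± 2.69 and 10.5 ± 4.66 CPM in Slc11a2KD WT and Slc11a2KD *APP/PS1* (SD, n = 5 each). Between libraries 18 to 23 and 1 to 4 of the Slc11a2KD samples its log2 difference was -0.59 (SE 0.26, adjusted p = 0.111), opposite in sign to that of *Dgat1* (0.66).

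*Acsl1* (ENSMUSG00000018796, chr8:46924063-46990145, plus strand) encodes an acyl-CoA synthetase that activates long-chain fatty acids. In the Control samples the genotypes had almost the same level, 31.3 ± 5.97 CPM in WT and 31 ± 5.48 CPM in *APP/PS1* (SD, n = 6 each; log2 -0.01, SE 0.19, adjusted p = 0.982). After knockdown, WT had 37.2, 43.5, 36.7, 30.8 and 24.7 CPM and *APP/PS1* 31, 19.1, 19.3, 11.4 and 18.1 CPM. Library 4 was the highest *APP/PS1* sample and lay within the WT range, and the other 4 were below every WT sample. The log2 fold change was -0.81 (SE 0.21, adjusted p = 0.0096), a level 0.572 times that of WT. The call was lost with only the compared groups in the fit (log2 -0.77, adjusted p = 0.0845). It was also lost with only libraries 18 to 23 of the Slc11a2KD samples in the fit (log2 -0.74, adjusted p = 0.0657). The difference between this change and that in the Control samples did not pass the edgeR test (interaction, log2 -0.79, SE 0.28, adjusted p = 0.544).

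*Hilpda* (ENSMUSG00000043421, chr6:29272409-29276301, plus strand) encodes a small droplet protein that is induced by hypoxia and by fatty acids and inhibits the lipase of *Pnpla2*. In the Control samples it varied least of the 10 genes in WT (coefficient of variation 7.7%), at 7.71 to 9.45 CPM (median 8.62), and had 6.99 to 12.5 CPM in *APP/PS1* (median 9.50; log2 0.16, SE 0.27, adjusted p = 0.798). Slc11a2KD WT had 7.36, 5.05, 3.04, 10.4 and 11.9 CPM and Slc11a2KD *APP/PS1* 8.89, 9.27, 14.2, 19.6 and 22.2 CPM. The groups overlapped, with libraries 19 and 22 of WT above libraries 4 and 18 of *APP/PS1*. The log2 fold change was 0.97 (SE 0.29, adjusted p = 0.0258). The call was lost without any one of libraries 1, 2, 3, 21 or 23, with an adjusted p of at most 0.0902, with a term for library numbers 18 to 23 (log2 0.63, SE 0.24, adjusted p = 0.111), with only the compared groups (adjusted p = 0.145), with only libraries 18 to 23 (adjusted p = 0.351) and with library 10 kept (adjusted p = 0.058).

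*G0s2* (ENSMUSG00000009633, chr1:192949563-192956177, minus strand) encodes another inhibitor of the same lipase and was among the lowest of the 10 genes. It had 1.08 to 6.16 CPM in Control WT (median 2.10) and 1.38 to 4.77 CPM in Control *APP/PS1* (median 2.94), with log2 0.14 (SE 0.40, adjusted p = 0.895). One WT sample, library 14 at 6.16 CPM, stood above all Control *APP/PS1* samples used. Slc11a2KD WT had 2.33, 0.741, 1.89, 2.76 and 1.76 CPM and Slc11a2KD *APP/PS1* 2.40, 4.78, 4.44, 4.46 and 4.08 CPM. Only library 4 of *APP/PS1* lay within the WT range, and the difference did not pass the test (log2 1.09, SE 0.45, adjusted p = 0.0974), although DESeq2 put it just past the threshold (adjusted p = 0.0482).

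*Pnpla2* (ENSMUSG00000025509, chr7:141034404-141040656, plus strand) encodes adipose triglyceride lipase, which takes the first fatty acid from a triglyceride. Its level in the Control samples was 57.1 to 72.3 CPM in WT (median 65.4) and 56.8 to 77.1 CPM in *APP/PS1* (median 62.1), and the ranges coincided (log2 -0.04, SE 0.15, adjusted p = 0.910). Slc11a2KD WT had 69.8, 92.6, 94.4, 61.8 and 49.5 CPM and Slc11a2KD *APP/PS1* 69.6, 55.9, 47.2, 42.8 and 43.7 CPM. Libraries 2 and 3 were the highest of all 22 samples, and library 22 of WT lay among the *APP/PS1* samples. The log2 fold change was -0.51 (SE 0.16, adjusted p = 0.0334). This call was lost without any one of libraries 2, 3, 20, 21 or 23, with an adjusted p of at most 0.116, with the term for library numbers (log2 -0.26, SE 0.12, adjusted p = 0.222), with only the compared groups (adjusted p = 0.187), with only libraries 18 to 23 (adjusted p = 0.382) and with library 10 kept (adjusted p = 0.0754).

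*Lipe* (ENSMUSG00000003123, chr7:25078880-25098135, minus strand) encodes hormone-sensitive lipase, which acts next, on diacylglycerols and sterol esters. It had 31.9 to 40.4 CPM in Control WT (median 37.1) and 22.5 to 28.8 CPM in Control *APP/PS1* (median 26.2). The groups did not overlap, but with the spread shared by all 4 groups the difference did not pass the test (log2 -0.48, SE 0.18, adjusted p = 0.0968). It passed when only the 2 Control groups were fitted (log2 -0.47, adjusted p = 0.0018), with the term for library numbers (adjusted p = 0.00728) and in DESeq2 (adjusted p = 0.0331). In the Slc11a2KD samples WT had 40.7, 45.2, 46.3, 26.4 and 22.6 CPM and *APP/PS1* 35.7, 27.9, 20.7, 14.4 and 23.7 CPM, with overlap (log2 -0.57, SE 0.20, adjusted p = 0.0560). This difference passed in DESeq2 (adjusted p = 0.0240), with DESeq2 size factors (adjusted p = 0.0469) and without library 4, 19 or 22 (adjusted p = 0.00746 without library 4), and was smaller with the term for library numbers (log2 -0.22, SE 0.15, adjusted p = 0.416). Exons of *Lipe* share 1326 bases with *4732471J01Rik* on the other strand, which had at most 2.05 CPM in any sample.

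*Mgll* (ENSMUSG00000033174, chr6:88652108-88805342, plus strand) encodes monoacylglycerol lipase, which releases the last fatty acid and also degrades the endocannabinoid 2-arachidonoylglycerol. Control WT had 35.4 to 57.1 CPM (median 50.6) and Control *APP/PS1* 24.3 to 31.8 CPM (median 29.7). Every *APP/PS1* sample was below every WT sample, and the level was 0.588 times that of WT (log2 -0.76, SE 0.18, adjusted p = 0.00657). Slc11a2KD WT had 67.2, 57.0, 55.7, 32.4 and 30.5 CPM and Slc11a2KD *APP/PS1* 35.6, 21.4, 18.7, 23.8 and 26.9 CPM. Here library 4 of *APP/PS1* was above libraries 19 and 22 of WT, while within libraries 18 to 23 the genotypes did not overlap. The call was lost, however, with only libraries 18 to 23 of the Slc11a2KD samples in the fit (log2 -0.50, SE 0.17, adjusted p = 0.104). Over all samples the level was 0.521 times that of WT (log2 -0.94, SE 0.20, adjusted p = 0.00235), and with the term for library numbers the log2 fold change was -0.57 (SE 0.14, adjusted p = 0.00946).

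**Figure D2:**
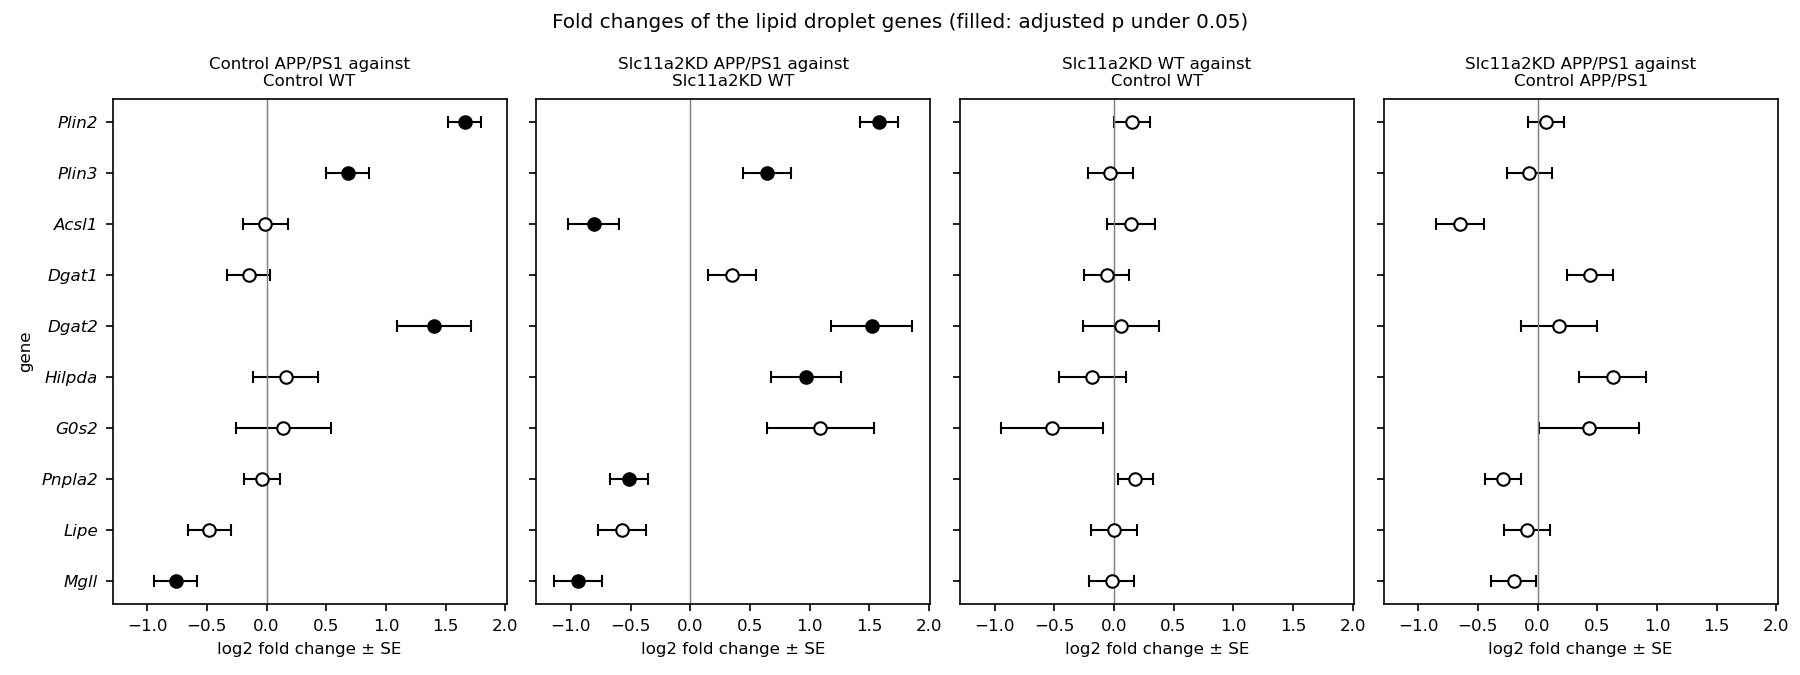
Log2 fold change (x axis, log2 units) of each lipid droplet gene in the 4 comparisons of groups, with its SE as the bar. Filled points passed an adjusted p of 0.05 in the edgeR test. *Plin2*, *Plin3*, *Dgat2* and *Mgll* are filled in both comparisons of *APP/PS1* with WT, and no point is filled in either comparison of Slc11a2KD with Control.

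The knockdown was compared with Control within each genotype. In WT, 0 of the 10 genes passed the edgeR test and 0 had an unadjusted p under 0.05 beside 0 of all genes (0.0%) by adjusted p and 5.92% by unadjusted p. DESeq2 called 0 of the 10 as well, beside 0.0321% of genes higher and 0.0214% lower. Log2 fold changes of the 10 genes ran from -0.52 for *G0s2* (SE 0.43) to 0.18 for *Pnpla2* (SE 0.15), and that of *Plin2* was 0.15 (SE 0.15). In *APP/PS1* also, 0 of the 10 genes passed the test in edgeR, as did 0 of all genes tested (0.0%). *Acsl1*, *Dgat1* and *Hilpda*, 3 of 10, had an unadjusted p under 0.05, as did 20.6% of all genes. *Acsl1* had a log2 fold change of -0.65 (SE 0.20, adjusted p = 0.205), *Dgat1* of 0.44 (SE 0.19, adjusted p = 0.214) and *Hilpda* of 0.63 (SE 0.28, adjusted p = 0.217). DESeq2 also called 0 of the 10, but gave no adjusted p for 7 of them, and of the 4575 genes to which it gave one it called 9.81% higher and 2.86% lower. The genotype-responsive coat genes were near their Control *APP/PS1* level, with a log2 fold change of 0.07 (SE 0.15) for *Plin2* and -0.07 (SE 0.19) for *Plin3*, and *Dgat2* had 0.18 (SE 0.32).

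Whether the *APP/PS1* difference itself changed with the knockdown was asked by the interaction. In edgeR 0 of the 10 genes passed, as did 0 of all genes (0.0%), and 2 of the 10, *Acsl1* and *Pnpla2*, had an unadjusted p under 0.05, beside 9.08% of all genes. DESeq2 called 0 of the 10, beside 0.0963% of genes higher and 0.0375% lower. For *Plin2* the interaction was -0.08 on the log2 scale (SE 0.21), for *Dgat2* 0.12 (SE 0.45) and for *Mgll* -0.18 (SE 0.27). The larger values were 0.95 for *G0s2* (SE 0.60), 0.81 for *Hilpda* (SE 0.40) and -0.79 for *Acsl1* (SE 0.28).

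These knockdown values depended on the library number. Within the Slc11a2KD samples, with genotype in the model, libraries 18 to 23 were compared with libraries 1 to 4. *Dgat1* and *Hilpda* were higher, 2 of 10 beside 11.3% of all genes, and *Acsl1*, *Pnpla2*, *Lipe* and *Mgll* were lower, 4 of 10 beside 12.7%. The sizes were log2 1.02 for *Hilpda* (SE 0.25, adjusted p = 0.00459), 0.66 for *Dgat1* (SE 0.17, adjusted p = 0.00724), -0.65 for *Acsl1* (SE 0.18, adjusted p = 0.0085), -0.59 for *Pnpla2* (SE 0.12, adjusted p = 0.00138), -0.80 for *Lipe* (SE 0.15, adjusted p = 0.000657) and -0.82 for *Mgll* (SE 0.14, adjusted p = 0.000457). In Slc11a2KD WT, where the genotype is fixed, *Mgll* had 55.7 to 67.2 CPM in libraries 1 to 3 and 30.5 and 32.4 CPM in libraries 22 and 19, and *Hilpda* 3.04 to 7.36 CPM against 10.4 and 11.9 CPM. None of these values overlapped between the runs. *Plin2* (log2 0.33, SE 0.16, adjusted p = 0.133), *Plin3*, *Dgat2* and *G0s2* did not pass this test.

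**Figure D3:**
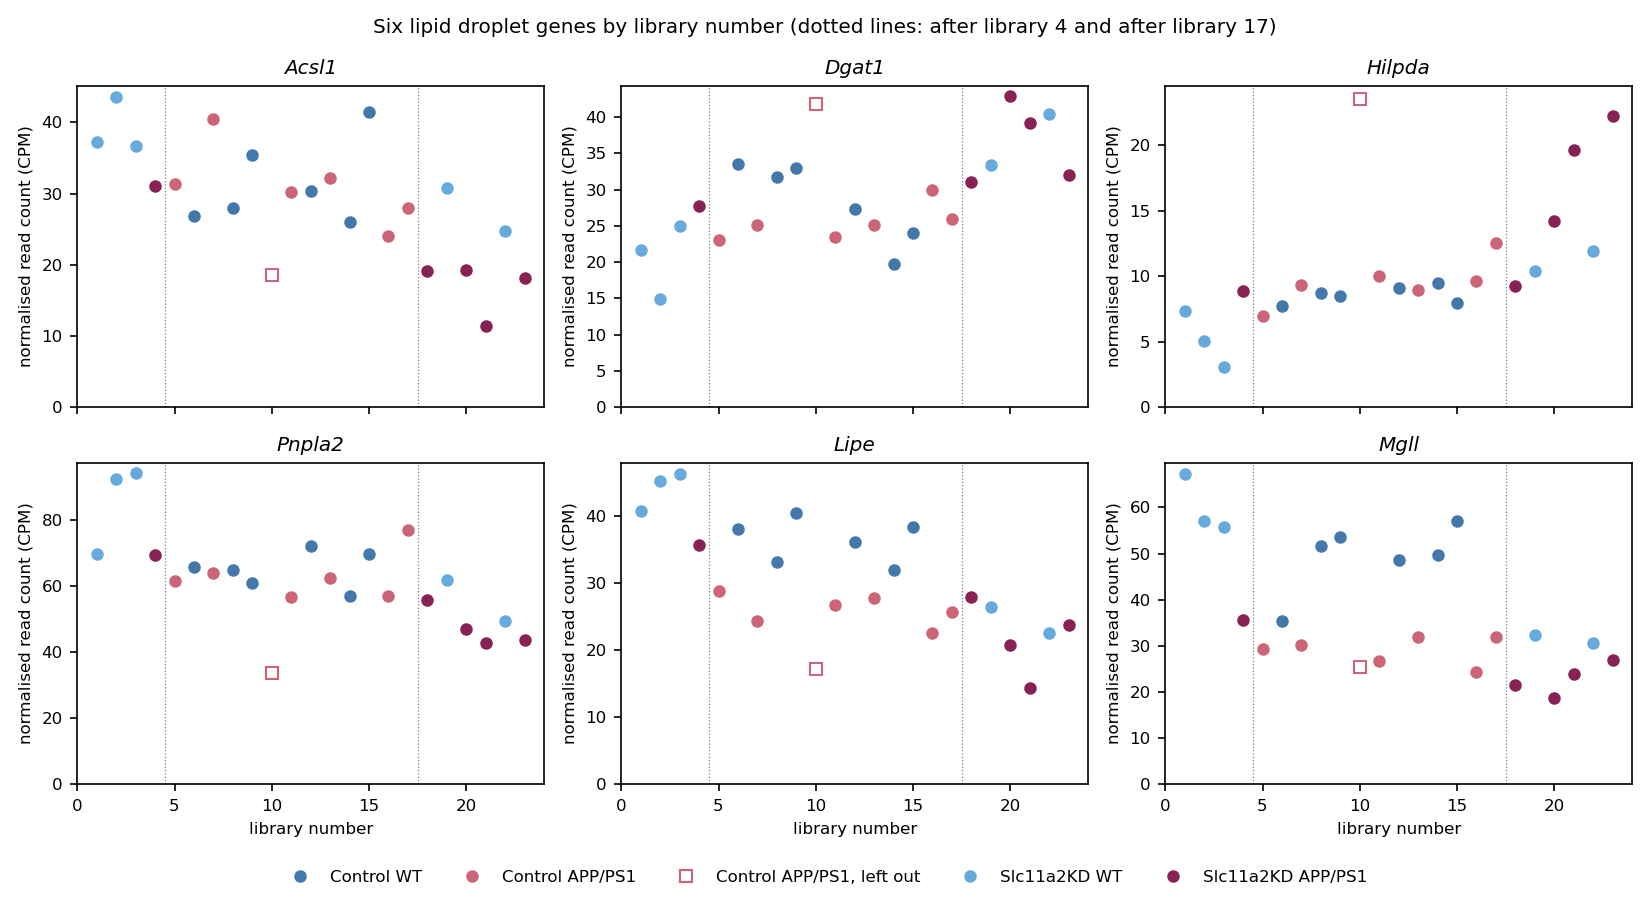
Normalised read count (CPM, linear axes from 0) of *Acsl1*, *Dgat1*, *Hilpda*, *Pnpla2*, *Lipe* and *Mgll* against the library number in the labels (x axis, no unit). Each point is a sample, coloured by group, and the open square is Control *APP/PS1* library 10, which was left out of the tests. In the Slc11a2KD samples the values of libraries 1 to 4, left of the first dotted line, differ from those of libraries 18 to 23, right of the second.

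Library 4 is the only Slc11a2KD *APP/PS1* sample outside libraries 18 to 23. Without it, *Acsl1* alone of the 10 genes passed the test in Slc11a2KD *APP/PS1* against Control *APP/PS1* (log2 -0.87, SE 0.19, adjusted p = 0.0202), so 1 of 10 was lower, beside 9.07% of all genes, and 0 of 10 higher, beside 7.34%. With libraries 1 to 4 all left out, a choice made after the data were seen, 2 of 10 were higher in Slc11a2KD *APP/PS1* than in Control *APP/PS1*, beside 9.21% of all genes, and 3 of 10 lower, beside 12.7%. *Hilpda* had a log2 fold change of 0.73 (adjusted p = 0.0152), *Dgat1* of 0.48 (adjusted p = 0.0221), *Acsl1* of -0.89 (adjusted p = 0.00425), *Pnpla2* of -0.44 (adjusted p = 0.0116) and *Mgll* of -0.38 (adjusted p = 0.0400). With a term for library numbers instead, 0 of the 10 passed, and 8 of the 10 changed sign, among them *Hilpda* (-0.22, SE 0.29) and *Dgat1* (-0.09, SE 0.20). No Control sample had a number from 18 to 23, so the library run and the knockdown cannot be told apart in that comparison.

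Several marker sums differed with the library number, with the widest split in those of the choroid plexus (10 of 10 in the table). Their sum was 89.5 to 796 CPM in libraries 18 to 23, 2.30 to 51.8 CPM in libraries 1 to 4 and 1.30 to 5.41 CPM in Control *APP/PS1*, where 4 of the 10 were at 0 in every sample. It was highest in libraries 12 and 15 of Control WT, at 1970 and 1020 CPM. In those 2 samples *Mgll* had 48.7 and 57.1 CPM, *Lipe* 36.1 and 38.3 CPM, *Pnpla2* 72.3 and 69.8 CPM, *Acsl1* 30.4 and 41.4 CPM, *Dgat1* 27.3 and 24 CPM, and *Hilpda* 9.07 and 7.95 CPM. Libraries 12 and 15 are Control WT, and libraries 18 to 23 are Slc11a2KD samples of both genotypes, so group and library number differ together between them. In Slc11a2KD WT, 4 further sums were higher in libraries 19 and 22 than in libraries 1 to 3 without overlap. These were oligodendrocyte (5 of 5; 2220 and 3550 CPM, against 940 to 2030 CPM), monocyte (46.7 and 75.4, against 22 to 38.7), lymphocyte (28.2 and 30.0, against 19.6 to 27.5) and microglial markers (39800 and 40800, against 36200 to 38700). In Slc11a2KD *APP/PS1* the astrocyte sum was 124 CPM in library 4 and 37.7 to 42.7 CPM in the other 4 samples, and the sums of microglia (29500 CPM, against 30900 to 33200 CPM), oligodendrocytes (490, against 561 to 1210) and endothelium (87.1, against 105 to 159) were lower in library 4. Over all 22 samples the other sums were 21.1 to 521 CPM for neutrophils (8 of 8), 8.98 to 81.0 CPM for monocytes (5 of 5), 10.8 to 37.4 CPM for lymphocytes (5 of 6), 87.1 to 322 CPM for endothelium (5 of 5) and 1.09 to 8.23 CPM for neurons (5 of 5). Their part in the library pattern of the droplet genes was not tested.

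Levels were compared between the genes only per kilobase of the canonical transcript. In Control WT, *Pnpla2* came first with 31.6 ± 2.69 CPM per kilobase, then *Plin2* with 19.7 ± 4.00, *Dgat1* with 14.9 ± 2.92, *Mgll* with 13.4 ± 2.03 and *Lipe* with 9.26 ± 0.833 (SD, n = 6). *Acsl1* (5.42 ± 1.03), *Hilpda* (4.17 ± 0.321) and *Plin3* (3.20 ± 0.689) followed, and *G0s2* (1.59 ± 1.10) and *Dgat2* (0.781 ± 0.286) were lowest. The neighbours *Dgat1* and *Mgll*, and *G0s2* and *Dgat2*, lay within their SD of one another. In Control *APP/PS1* the order at the top was turned, with *Plin2* at 62.4 ± 8.91 and *Pnpla2* at 30.7 ± 3.60 CPM per kilobase, and *Dgat2* (2.05 ± 0.827) stood beside *G0s2* (1.76 ± 0.763). In Slc11a2KD *APP/PS1*, *Plin2* had 65.6 ± 13.4 and *Pnpla2* 25.2 ± 5.43 (SD, n = 5). The order depends on the length used. Per kilobase of all annotated exons, *Plin2* had 5.26 ± 1.07 in Control WT, below *Mgll* (7.99 ± 1.21), and 16.6 ± 2.38 in Control *APP/PS1*, beside *Pnpla2* (16.1 ± 1.89).

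The other genes of droplet and fatty acid handling were taken from 6 lists with 68 genes, of which 60 were tested. In Control *APP/PS1* against Control WT, 19 of the 60 were higher and 2 lower in edgeR, and 39 did not pass, where 5.99% of all genes tested were higher and 4.48% lower. DESeq2 called 21 higher and 4 lower, beside 7.64% and 8.06% of the genes to which it gave an adjusted p. With knockdown, 17 were higher and 5 lower in edgeR, beside 9.77% and 6.41% of all genes, and 18 and 8 in DESeq2, beside 16.4% and 13.3%. The edgeR shares apply to the counts of each list below, which are from edgeR. The largest fold changes among the named genes were those of *Fabp3* and *Fabp5*, in the list of fatty acid uptake, synthesis and carriers, where 7 of 14 were higher and 1 lower in the Control samples, and 5 higher and 2 lower in the Slc11a2KD samples. *Fabp3* and *Fabp5* encode cytosolic fatty acid binding proteins. *Fabp5* had 5.63 ± 5.21 CPM in Control WT and 164 ± 59.6 CPM in Control *APP/PS1* (SD, n = 6 each), a 28.9-fold difference (log2 4.85, SE 0.54, adjusted p = 9.78e-07), and *Fabp3* 0.851 ± 0.741 and 40.2 ± 11.1 CPM (log2 5.55, SE 0.58, adjusted p = 3.26e-07). *Acaca*, the acetyl-CoA carboxylase that commits carbon to fatty acid synthesis, had a log2 fold change of 3.03 (SE 0.40). *Cd36*, a scavenger receptor and fatty acid importer, fell, from 28.4 ± 3.66 to 9.75 ± 2.57 CPM (log2 -1.54, SE 0.22, adjusted p = 2.44e-05). In the Slc11a2KD samples the log2 fold changes were 6.17 for *Fabp3* (SE 0.65), 6.10 for *Fabp5* (SE 0.63), 2.41 for *Acaca* (SE 0.43) and -1.76 for *Cd36* (SE 0.24), and *Scd1*, a stearoyl-CoA desaturase, was also lower (-1.55, SE 0.41, adjusted p = 0.0107). *Fabp4* and *Fabp7*, of the same list, did not pass the edgeR test in either comparison. Their log2 fold changes were -1.71 (SE 1.32) and 0.47 (SE 1.21) in the Control samples. In the Slc11a2KD samples they were -0.4 (SE 1.4) and 0.14 (SE 1.31). Astrocytes also express fatty acid binding proteins, and their marker sum moved with genotype (35.3 to 124 CPM in *APP/PS1*, 5.60 to 16.5 CPM in WT). Its part in these changes was not tested.

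Of the 11 further lipolysis genes 3 rose in both comparisons and 0 fell, beside 5.99% of all genes higher in the Control samples and 9.77% in the Slc11a2KD samples. *Lpl*, lipoprotein lipase, which frees fatty acids from lipoproteins outside the cell, had 25.2 ± 29.5 CPM in Control WT and 268 ± 156 CPM in Control *APP/PS1* (SD, n = 6 each; log2 3.41, SE 0.52, adjusted p = 7.35e-05), and log2 3.89 (SE 0.59) in the Slc11a2KD samples. *Lipa*, the acid lipase of the lysosome, rose by log2 0.72 (SE 0.09) and 0.75 (SE 0.10), and *Abhd12*, a lysophospholipid and monoacylglycerol hydrolase, by log2 0.62 (SE 0.09) and 0.66 (SE 0.10). Among the 3 genes of sterol esters, *Soat1*, which makes them, and *Nceh1*, which splits them, both rose. *Nceh1* went from 32.6 ± 8.11 to 201 ± 32.6 CPM (log2 2.62, SE 0.15, adjusted p = 7.63e-11) and *Soat1* from 91.5 ± 17.3 to 212 ± 22.4 CPM (log2 1.21, SE 0.12, adjusted p = 1.93e-07) in the Control samples, and the log2 fold changes in the Slc11a2KD samples were 1.91 (SE 0.16) and 1.46 (SE 0.13). Hydrolases were therefore on both sides of the comparison, with *Lipa*, *Lpl*, *Abhd12* and *Nceh1* higher and *Mgll* lower.

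**Figure D4:**
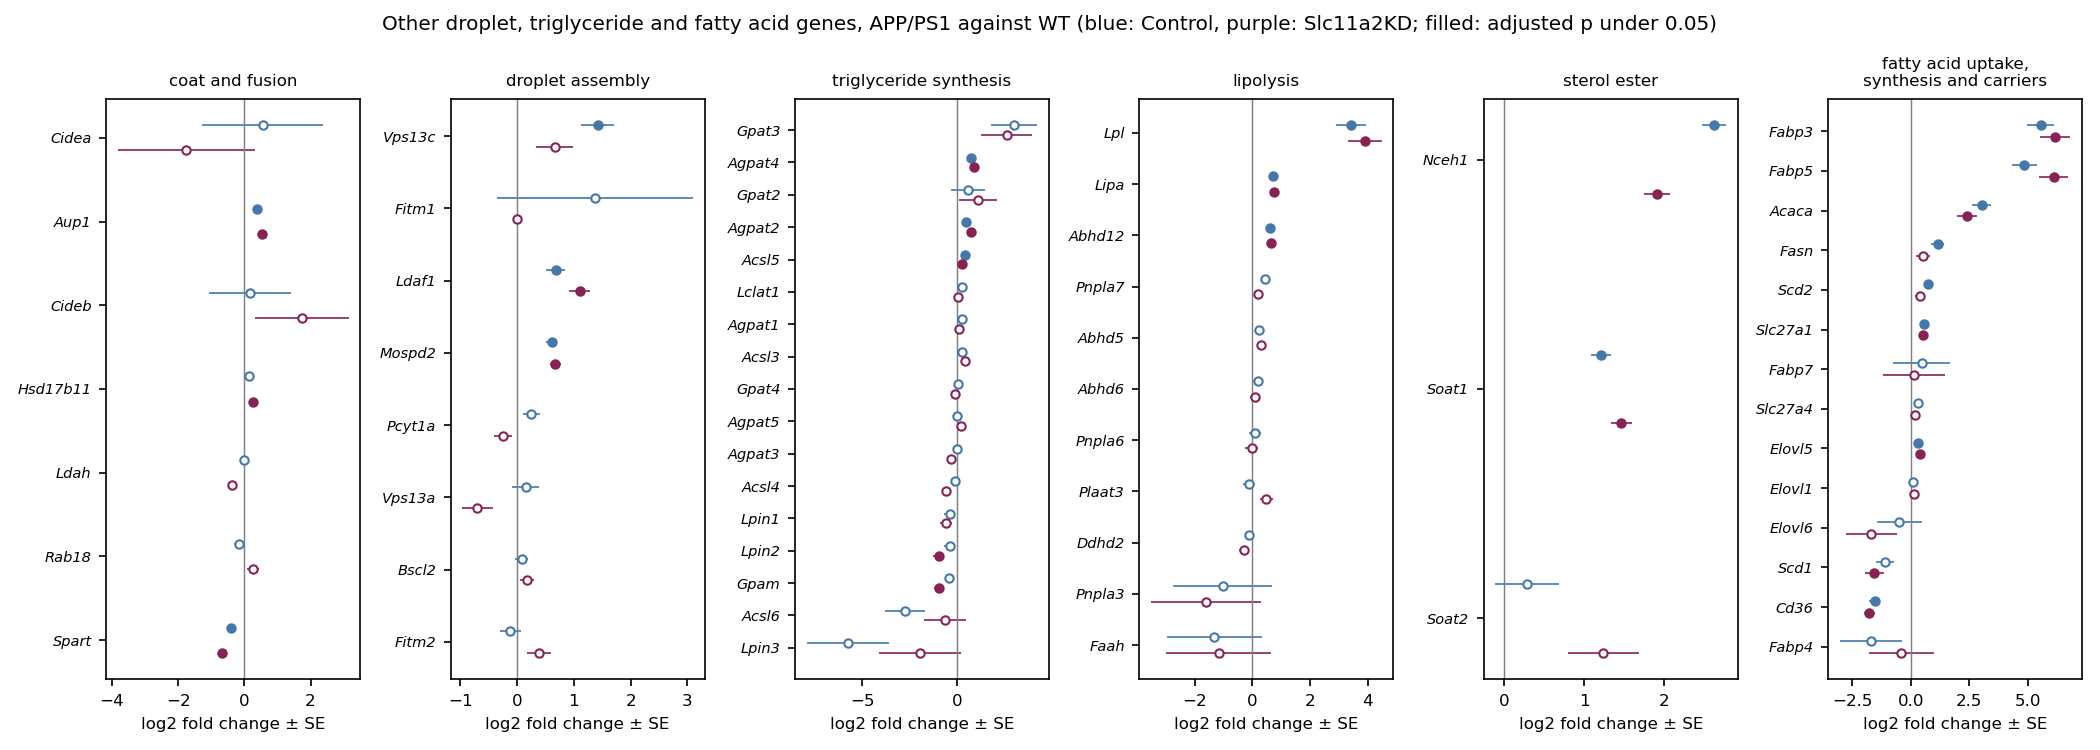
Log2 fold change (x axis, log2 units, a scale of its own in each panel) of the 60 other genes in *APP/PS1* against WT, by list, with the SE as the bar. Blue is Control, purple is Slc11a2KD, and filled points passed an adjusted p of 0.05 in the edgeR test. *Fabp3*, *Fabp5*, *Acaca*, *Lpl*, *Nceh1* and *Soat1* are filled and above 1 in both.

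Of 17 further triglyceride synthesis genes, 3 rose in the Control samples, *Agpat4* (log2 0.74, SE 0.20), *Agpat2* (0.48, SE 0.13) and *Acsl5* (0.43, SE 0.09), of which the first pair are acyltransferases of glycerolipid synthesis and the last an acyl-CoA synthetase. The same 3 rose in the Slc11a2KD samples, in which *Gpam* (-0.96, SE 0.25), the mitochondrial glycerol-3-phosphate acyltransferase, and *Lpin2* (-0.96, SE 0.30), a phosphatidic acid phosphatase, fell. Of 8 droplet assembly genes, *Vps13c* (log2 1.42, SE 0.29), a lipid transfer protein, *Ldaf1* (0.68, SE 0.17), a partner of seipin in droplet formation, and *Mospd2* (0.61, SE 0.10), a tether to the endoplasmic reticulum, rose in the Control samples. *Ldaf1* (1.10, SE 0.19) and *Mospd2* (0.67, SE 0.10) rose in the Slc11a2KD samples too. Of 7 coat and fusion genes in the table, *Aup1* rose (0.38, SE 0.11; 0.53, SE 0.12 in Slc11a2KD) and *Spart* fell (-0.40, SE 0.12; -0.66, SE 0.13), and *Hsd17b11* rose in the Slc11a2KD samples (0.27, SE 0.08). Between Slc11a2KD and Control, 0 of the 60 passed the edgeR test in either genotype or in the interaction, with 1 of 60 in WT, 16 of 60 in *APP/PS1* and 3 of 60 in the interaction at an unadjusted p under 0.05, beside 5.92%, 20.6% and 9.08% of all genes. DESeq2 called 0 of the 60 in WT, beside 0.0321% of genes higher and 0.0214% lower, and 0 in the interaction, beside 0.0963% and 0.0375%. In *APP/PS1* it called *Ldaf1* and *Pcyt1a*, 1 higher and 1 lower of the 30 to which it gave an adjusted p, beside 9.81% and 2.86% of the 4575 such genes.

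Within the groups, the genes whose deviations from the group means were most like those of *Plin2* were *Slc31a2* (Pearson r = 0.85, Spearman rho = 0.82), *Nudt2* (0.82 and 0.81), *Fbxo6* (0.80 and 0.82), *Hint3* (0.80 and 0.87) and *Slc30a6* (0.80 and 0.79), over 22 samples and 11873 genes with a mean of at least 1 CPM. Of the other 9 droplet genes, *G0s2* followed *Plin2* most closely (r = 0.60, rho = 0.56), then *Hilpda* (0.42 and 0.46) and *Dgat1* (0.41 and 0.50), and *Plin3* (0.20 and 0.28) and *Dgat2* (0.10 and 0.23) did so weakly. *Acsl1* (-0.60 and -0.52), *Pnpla2* (-0.60 and -0.70), *Lipe* (-0.57 and -0.57) and *Mgll* (-0.56 and -0.59) went the other way. These correlations are a description, since the samples share the difference between library runs.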

How the data were processed

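RNA-seq was performed on poly(A) RNA of CD11b-positive hippocampal cells of female mice. As described by the authors, reads were trimmed with Trim Galore 0.6.7, aligned to mm39 and counted per gene with STAR, and the deposited table holds whole-number counts that were not normalised. A deposited table of normalised values was not used. DESeq2 1.36.0 was named in the submitters' processing notes.

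Groups were taken from the sample labels. Of 23 samples, 22 were used. Control *APP/PS1* library 10, the sample that the study appears to have removed as an outlier, was left out. A gene was tested if 3 or more samples had 5 or more counts of it (18759 of 18876). Counts were scaled by TMM and fitted with edgeR 4.0.16 (quasi-likelihood, 4 groups in 1 fit, two-sided) under R 4.3.3, and p-values were adjusted by Benjamini-Hochberg over all genes tested, with a threshold of 0.05. The SE was the log2 fold change divided by the square root of F. CPM values use TMM scaling over 22 samples. Log2 CPM for the correlations had a prior count of 2. Values with library 10 use scaling over 23 samples. The steps were tested on simulated counts.

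The alternatives were DESeq2 1.42.0 in place of edgeR, DESeq2 size factors in edgeR, no filter, library 10 kept, only the compared groups, a term for library numbers 18 to 23, each sample left out in turn, a further requirement that the log2 fold change exceed 1 in size, and, added after seeing the data, only libraries 18 to 23 among Slc11a2KD samples. The lipid droplet genes and the gene lists were chosen with earlier results of these data known. All 10 genes are described in every comparison. Of the other lists, up to 3 genes in each direction past the threshold are named for each comparison, by the size of the log2 fold change. *Pcyt1a*, *Fabp4* and *Fabp7* were named after their values were seen. Positions and exon lengths come from GENCODE on GRCm39, matched by Ensembl identifier for all 10 genes, and promoter windows from RefSeq on GRCm38.p6, with entries for 8 of 10 (none for *Dgat1* and *Dgat2*).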

Additional observations from a re-analysis of the deposited data

Results flagged for a closer look

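For each of the 10 genes, each of the 4 groups was searched for a sample far from the others, 40 searches in all, of which chance alone would flag about 1 in 20. One sample was found. *Pnpla2* had 77.1 CPM in library 17 of Control *APP/PS1*, while the other 5 samples of the group had 56.8 to 64.0 CPM, a gap of 0.645 of the range of the group (critical value 0.625).

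Control *APP/PS1* library 10, which was left out of the comparisons, was above all 12 Control samples used in 2 of the 10 genes, beside 21.1% of all 18865 genes in the fit of 23 samples, and below them in 3, *Acsl1*, *Pnpla2* and *Lipe*, beside 19%. *Hilpda* had 23.5 CPM in it, against 6.93 to 12.4 CPM, and *Dgat1* 41.8 CPM, against 19.6 to 33.2 CPM, all scaled over 23 samples.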

How the results depend on the processing

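In *APP/PS1* against WT, *Plin2*, *Plin3*, *Dgat2* and *Mgll* passed the test in the Control samples in each alternative run without the limit on fold size, and 1 more gene, *Lipe*, was lower in DESeq2, with the term for library numbers and with only the compared groups (2 lower each, beside 8.06%, 6.16% and 7.28% of all genes). With the limit of 1 on the log2 fold change, 2 were higher, without *Plin3*, beside 2.8% of all genes, and 0 lower, beside 2.09%. In the Slc11a2KD samples, only the compared groups gave 2 higher (4.33% of all genes) and 1 lower (1.78%). Only libraries 18 to 23 gave 1 higher (2.6%) and 0 lower (2.09%), and the limit of 1 gave 2 higher (3.91%) and 0 lower (1.98%). The term for library numbers gave 3 higher and 2 lower, beside 1121 and 652 of 18759 genes. Leaving out 1 sample gave 2 to 5 higher and 2 to 4 lower. The number higher was 2 without library 1 (1377 of 18679 genes) and 2 without library 2 (1249 of 18650 genes). Without library 22 it was 5 (2475 of 18681 genes), and the number lower was 4 (1960 genes). Between Slc11a2KD and Control *APP/PS1*, only libraries 18 to 23 gave 2 higher and 3 lower, and leaving out 1 sample gave 0 to 1 lower (1 without library 4). The direction of *Dgat1* in the Slc11a2KD samples reversed with only libraries 18 to 23 (-0.06). Fewer samples entered the fits of only the compared groups, of only libraries 18 to 23 and those leaving out a sample, and the limit of 1 removes calls by its construction. For the other changes the cause was not tested.

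The other reversals were of log2 fold changes that did not pass the test. With the term for library numbers, Slc11a2KD against Control in WT turned for *Plin3* (0.02), *Lipe* (0.26) and *Mgll* (0.24), and in *APP/PS1* for *Plin2* (-0.21), *Plin3* (0.02), *Dgat1* (-0.09), *Hilpda* (-0.22), *G0s2* (-0.10), *Pnpla2* (0.17), *Lipe* (0.52) and *Mgll* (0.43), and the interaction for *Plin3* (0.00068), *Lipe* (0.26) and *Mgll* (0.20). With only libraries 18 to 23, the knockdown in WT turned for *Acsl1* (-0.16), *Dgat1* (0.40), *Dgat2* (-0.09), *Hilpda* (0.39) and *Pnpla2* (-0.22), and moved without turning for *Mgll* (from -0.02 to -0.64, adjusted p = 0.09) and *Lipe* (-0.56, adjusted p = 0.135), and the interaction for *Lipe* (0.27) and *Mgll* (0.26). The interaction of *Plin3* was also above 0 in DESeq2 (0.00329), with its size factors (0.00319) and with library 10 kept (0.00384).

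Leaving out 1 sample turned the sign of small values. In Control *APP/PS1* against Control WT, *Acsl1* ran from -0.10 to 0.08 and *G0s2* from -0.04 to 0.57. In Slc11a2KD WT against Control WT, *Plin3* ran from -0.13 to 0.06, *Dgat1* from -0.26 to 0.10, *Dgat2* from -0.09 to 0.22, *Hilpda* from -0.42 to 0.02, *Lipe* from -0.11 to 0.11 and *Mgll* from -0.17 to 0.09. In Slc11a2KD *APP/PS1* against Control *APP/PS1*, *Plin2* ran from -0.05 to 0.15, *Plin3* from -0.18 to 0.02 and *Lipe* from -0.26 to 0.04. The interaction ran from -0.19 to 0.0048 for *Plin2*, -0.14 to 0.06 for *Plin3*, -0.04 to 0.35 for *Dgat2* and -0.26 to 0.06 for *Lipe*. No paired analysis was run, because the sample labels used here name no litter, cage or other pairing. At 43 to 127 counts of *Dgat2* and 35 to 277 of *G0s2* a Control WT sample, depth limits these 2 genes most.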

Other observations

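Control *APP/PS1* library 10 also lay outside the other 6 samples of its group in 4 further droplet genes, and with *Hilpda* and *Dgat1* was above them in 3 of the 10, beside 29.9% of all genes, and below them in 3, beside 27.9%. These counts are near those shares. It was below them for *Acsl1* (18.6 CPM, against 23.7 to 40.1 CPM), *Pnpla2* (33.8 CPM, against 56.3 to 76.4 CPM) and *Lipe* (17.2 CPM, against 22.3 to 28.5 CPM), and above them for *G0s2* (5.53 CPM, against 1.37 to 4.73 CPM). It lay within the range of the group for *Plin2* (123 CPM), *Plin3* (15.6 CPM), *Dgat2* (3.95 CPM) and *Mgll* (25.4 CPM). With it kept in the fit, *Plin2*, *Plin3*, *Dgat2* and *Mgll* were called in the Control comparison as before, while in the Slc11a2KD samples *Hilpda* (adjusted p = 0.058) and *Pnpla2* (adjusted p = 0.0754) no longer passed the edgeR test, which left 3 of 10 higher, beside 7.82% of all genes, and 2 lower, beside 4.84%.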
